A study of Mus musculus with 6 samples.

Results

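Activins and inhibins are dimers built from a small set of subunits, and the genes followed here are the 10 that make, trap or receive them: the subunits *Inha*, *Inhba* and *Inhbb*, the binding proteins *Fst* and *Fstl3*, the receptors *Acvr1b*, *Acvr2a* and *Acvr2b*, the co-receptor *Tgfbr3* and the intracellular mediator *Smad2*. They were chosen by symbol, 10 of the 26251 genes listed in the single-cell tables, and all 10 were measured. The tables come from mouse gonads at embryonic stage E15.5 in 3 groups of 2 libraries each. Control XY are testes and control XX are ovaries, both Amh+/+; Inhbb+/+. dKO XY are gonads, labelled as testes, of embryos that are Amh-/-; Inhbb-/-. Such embryos are without anti-Müllerian hormone and without the βB subunit that activin B and inhibin B are made from. The study describes these gonads at E15.5 as ovotestes, with cells positive for the granulosa marker FOXL2 at the poles. All 3 groups belong to the same C57BL/6 Amh; Inhbb stock, derived from crosses of *Amh* and *Inhbb* heterozygotes, and no Cre driver or transgene was named. Each library held the pooled gonad pair of an animal, the cells of which were frozen until the genotype was known, and the study treated the libraries as biological replicates. An exact permutation test of 2 against 2 cannot go below p = 0.333, so the p-values here come from models fitted across all genes.

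The pathway works by pairing. A pair of β chains forms an activin, which binds a type 2 receptor (ACVR2A or ACVR2B), recruits a type 1 receptor such as ACVR1B and leads to phosphorylation of SMAD2 and SMAD3. A β chain joined to the α chain encoded by *Inha* forms an inhibin instead, which occupies type 2 receptors with the help of betaglycan, the product of *Tgfbr3*, and so blocks activin. Follistatin and the follistatin-like protein FSTL3 wrap activins and keep them from the receptors. In the fetal mouse gonad *Inhbb* is known as a Sertoli cell gene, *Inhba* as an interstitial gene of the testis that acts on cord growth, and *Fst* as a gene of the early ovary.

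After the cell filters 4781 to 8569 cells per library were kept of 7920 to 15953 barcodes, with a median of 18415 to 27124 unique molecular identifiers (UMIs) per cell. Of all barcodes, 24.4% and 28.3% in the dKO XY libraries carried 25% or more mitochondrial UMIs, against 2.22% to 9.35% in the 4 control libraries, and these barcodes were left out. Among the kept cells, 175 barcode sequences (0.447% of 39174) occurred in 2 or more libraries. Cells were clustered without the 10 genes, clusters were named from marker lists, and the UMIs of each cell type were added up within a library and scaled to 1000000 UMIs per sum (counts per 1000000, CPM). The protocol counts 3′ ends, so levels are compared between cells and groups within a gene, not between genes. Supporting cells, the lineage of Sertoli and granulosa cells, fell into Sertoli-like cells (190 and 407 from the control XY libraries, 677 and 421 from dKO XY), granulosa-like cells (69 and 32 in dKO XY, 2699 and 900 in control XX) and a subcluster that marker lists did not name (11 and 24 from control XY, 427 and 437 from dKO XY, 18 and 6 in control XX). Its summed Sertoli markers were at 1199 to 1388 CPM and its granulosa markers at 872 to 901 CPM in dKO XY, beside 306 to 344 CPM of interstitial and 322 to 382 CPM of Leydig markers. Against the other subclustered cells its Sertoli and granulosa markers were lower on average (log2 -1.32 and -0.98) and its interstitial and Leydig markers higher (1.13 and 1.81). Of all marker lists Leydig ranked first, with 5 of 6 markers enriched, and interstitial next, with 6 of 8. The naming rule applied to all lists would have called it Leydig. Germ cell markers ranked first in the Sertoli-like subcluster led by *Nusap1* and *Ube2c* (log2 1.89, 6 of 7). Sertoli markers came next there (1.53, 10 of 11). Interstitial markers ranked first in the granulosa-like subcluster led by *Lmcd1* and *Pax8* (0.73, 3 of 8), above granulosa markers (0.29, 3 of 8). The remaining Sertoli-like and granulosa-like subclusters had markers of their own type first (2.24 and 1.56). Sums of fewer than 10 cells were not used, which left 1 control XY library for germ cells and 1 control XX library for the unnamed subcluster.

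The deleted genes were looked at before the others, to check the labels. *Amh* (chromosome 10, 80805243 to 80807648, plus strand, GRCm38) stood in Sertoli-like cells at 2489 and 2273 CPM in control XY, against 23.5 and 19.0 CPM for the dKO XY libraries. Both dKO XY libraries lay far below both control XY libraries. *Inhbb* in the same cells stood at 193 and 219 CPM in control XY and 55.9 and 59.5 CPM in dKO XY. Both dKO XY libraries lay below both control XY libraries, yet *Inhbb* UMIs were still counted in 25.1% and 26.6% of dKO XY Sertoli-like cells when each cell was reduced to 5000 UMIs. Which exons the null alleles lack is not given in the sources used here. A 3′ tag that lies outside the deleted piece checks nothing, so the remaining *Inhbb* UMIs of dKO XY cells are RNA from the locus and say nothing of the protein. The same limit holds for each *Inhbb* value in dKO XY below. *Inhbb* stays in the counts of called members and the medians below wherever it was tested, though it is a deleted gene.

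In the sum of all supporting cells, the 3 subunit genes, *Fstl3* and *Acvr1b* fell in dKO XY, and no member rose past the threshold. Of 10 members tested, 5 were called and all 5 were lower, against 16.7% of the 15926 genes tested in this comparison, and the median log2 fold change of the members was -0.54 against 0.02 for all genes. The 5 include *Inhbb*, itself deleted in dKO XY. The log2 fold change was -2.30 ± 0.24 (SE) for *Inhba*, -1.89 ± 0.20 for *Inhbb* and -1.78 ± 0.13 for *Inha* (edgeR's quasi-likelihood test, Benjamini-Hochberg adjusted p = 0.000209, 0.000183 and 2.69e-05, below called the edgeR adjusted p). Without the supporting cells high in *Sycp3* or *Tcf21* the *Inhba* value was -0.74. *Acvr1b* fell by 1.00 ± 0.18 and *Fstl3* by 0.76 ± 0.20 on the log2 scale (edgeR adjusted p = 0.00408 and 0.0277). The sum mixes different cells in each group, since Sertoli-like cells held most of it in control XY, Sertoli-like cells and the unnamed subcluster in dKO XY, and granulosa-like cells in control XX.

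Within Sertoli-like cells, where the same 2 subclusters made up the class in both genotypes, 6 of 10 members were called against 14.4% of 13734 genes. *Inha*, *Inhba*, *Inhbb*, *Fstl3* and *Acvr1b* fell and *Fst* rose. *Acvr2a*, *Acvr2b*, *Tgfbr3* and *Smad2* did not pass the threshold. Calls for 3 of them depended on single libraries. *Inhba* went from -0.95 to -0.66 and *Acvr1b* from -0.74 to -0.52 without control XY library 2, and neither passed then (edgeR adjusted p = 0.281 and 0.252). The *Inhba* call was also lost under DESeq2 (-0.94), with a replicate block (-0.95) and without the highest doublet scores (-0.72). *Acvr1b* also missed the threshold without dKO XY library 1 (-0.56) and *Fstl3* without control XY library 1 (-0.87, edgeR adjusted p = 0.0628).

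**Figure D1:**
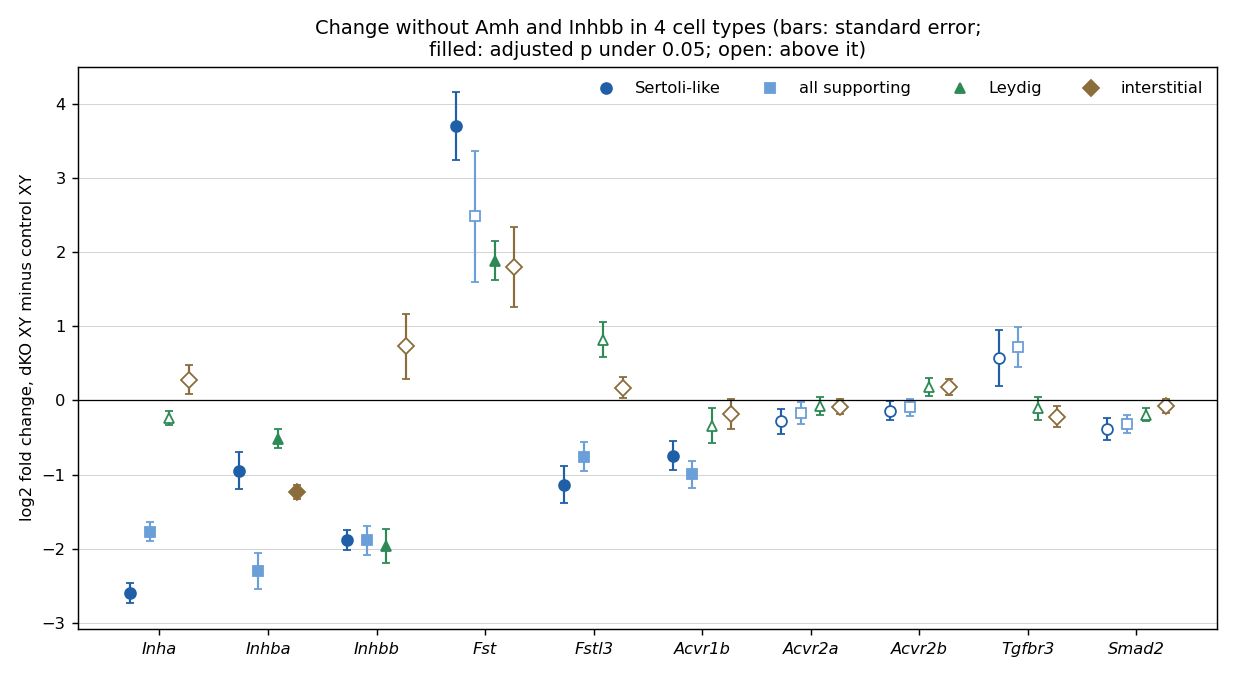
Log2 fold change of each of the 10 genes, dKO XY minus control XY (vertical axis), in Sertoli-like, all supporting, Leydig and interstitial cells, with bars of 1 standard error and filled symbols where the edgeR adjusted p was under 0.05. *Inhbb* lies near -1.9 in Sertoli-like and Leydig cells and above 0 in interstitial cells, while *Fst* lies above 0 in each of the 4 sums.

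*Inhbb* (ENSMUSG00000037035, chromosome 1, 119415465 to 119422248, minus strand) encodes the βB chain. In control XY its level was highest in Sertoli-like cells, at 206 ± 18.2 CPM (SD, n = 2), and second in Leydig cells at 53.5 and 65.7 CPM, whose values overlapped those of the unnamed subcluster. Interstitial cells were at 1.55 and 4.14 CPM. *Inhbb* was therefore a supporting and steroidogenic gene in these testes, with the cells between them near the level of endothelial cells, 1.33 and 6.47 CPM. After reduction of each cell to 5000 UMIs, 56.2% and 64.8% of control XY Sertoli-like cells and 18.9% and 22.8% of Leydig cells held an *Inhbb* UMI, against 1.23% and 3.80% of endothelial cells, the class taken for comparison. No cell of these classes had fewer than 5000 UMIs, and median depths were 26348 and 23235 UMIs in Sertoli-like and 25906 and 43804 in endothelial cells. Before reduction the Sertoli-like shares were 90.5% and 96.3%.

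*Inhbb* also fell in Leydig cells, the androgen-producing cells. They stood at 11.1 and 19.998 CPM in dKO XY, below both control XY libraries, a log2 fold change of -1.97 ± 0.23 (edgeR adjusted p = 0.00365). In control XX, granulosa-like cells held 38.1 and 25.9 CPM of *Inhbb*, and the 2 dKO XY libraries of granulosa-like cells, at 10.53 and 36.0 CPM, overlapped them. The unnamed subcluster held 13.1 and 70.2 CPM of *Inhbb* in control XY and 27.3 and 43.5 CPM in dKO XY. Epithelial cells were at 3.43 and 8.87 CPM in control XY, overlapping endothelial cells, 21.2 and 26.1 CPM in dKO XY and 33.8 and 12.1 CPM in control XX.

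*Inhba* (ENSMUSG00000041324, chromosome 13, 16011851 to 16031621, plus strand) encodes the βA chain, and in the fetal testis it is known from the interstitium. *Inhba* and *Inhbb* are the genes of the 2 β chains among the members, and their levels peaked in different cells of the testis, so the 250 bases before each annotated start are shown. They are RefSeq sequence of build GRCm38.p6, 5′ to 3′ on the strand of the gene. The window of *Inhbb* is chr1:119422249-119422498 on the minus strand and that of *Inhba* chr13:16011601-16011850 on the plus strand.
Inhbb: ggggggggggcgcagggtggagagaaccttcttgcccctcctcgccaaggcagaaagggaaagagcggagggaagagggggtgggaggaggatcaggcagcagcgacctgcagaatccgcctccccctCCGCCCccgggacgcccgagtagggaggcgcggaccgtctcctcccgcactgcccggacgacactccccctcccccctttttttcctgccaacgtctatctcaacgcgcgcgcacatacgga
Inhba: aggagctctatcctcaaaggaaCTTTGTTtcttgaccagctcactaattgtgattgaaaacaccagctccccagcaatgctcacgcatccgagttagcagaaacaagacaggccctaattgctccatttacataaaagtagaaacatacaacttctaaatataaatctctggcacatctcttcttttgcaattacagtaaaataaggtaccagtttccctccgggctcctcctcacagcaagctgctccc
In all, 4 motifs were searched on both strands, and the capitals mark the matches. *Inhbb* held 1 GC box (GGGCGG, read on the opposite strand), starting 122 bases before the start, and *Inhba* held 1 SOX-type site (AACAAAG, likewise on the opposite strand), starting 228 bases before it. A GC box was present in 32.7% and the SOX-type site in 5.03% of 32851 promoter windows of the same length. The other motifs, an NR5A1-type site (AAGGTCA, 4.08% of windows) and a cAMP response element (TGACGTCA, 1.55%), were not in either window. GC content was 68.0% for *Inhbb* and 43.2% for *Inhba*. Of the 10 members 7 had an entry in the RefSeq table.

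*Inhba* had its highest level in interstitial cells in each of the 3 groups. Control XY interstitial cells held 445 and 425 CPM, dKO XY 179 and 192 CPM and control XX 25.9 and 21.4 CPM. The 3 groups did not overlap, and dKO XY lay between the controls. The log2 fold change was -1.24 ± 0.10 for dKO XY minus control XY and -4.15 ± 0.11 for control XX minus control XY (edgeR adjusted p = 0.00247 and 5.77e-07, both comparisons using the same control XY libraries). *Inhba* was the only member called among 10 between dKO XY and control XY interstitial cells, where 6.2% of 16845 genes were called, and it was called under each alternative run for this comparison. After reduction to 5000 UMIs, 78.2% and 76.8% of control XY interstitial cells held an *Inhba* UMI, 48.5% and 51.7% of dKO XY cells and 11.6% and 9.38% of control XX cells. Summed interstitial markers were also lower, at 3876 to 4165 CPM in control XY, 2788 to 2877 CPM in dKO XY and 2896 to 3250 CPM in control XX. Their part in the *Inhba* difference was not tested.

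The interstitial sum is a mix of 3 clusters, and the mix differed between groups. Cluster c0, led by *Sostdc1*, *Msc* and *Col25a1*, held 64.9% and 63.2% of control XY interstitial cells, 49.5% and 42.8% of dKO XY cells and 5 cells of control XX. Cluster c1 was led by genes of dividing cells such as *Mki67* and *Aspm*. Cluster c2, led by *Il33*, *Gdf10* and *Crabp1*, held 5.24% and 3.95% of control XY cells, 14.4% and 11.2% of dKO XY cells and 99.4% and 99.9% of control XX interstitial cells. These shares carry no test. *Inhba* stood at 527 and 501 CPM in c0 of control XY, 388 and 379.9 CPM in c1, and 89.1 and 42.2 CPM in c2.

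Within c0 and c1 the *Inhba* difference between genotypes was near that of the sum, and in c2 it was smaller and not called. In c0, dKO XY stood at 239 and 244 CPM, a log2 fold change of -1.09 ± 0.07 (edgeR adjusted p = 0.00214), and 2 of 10 members were called against 9.77% of 15584 genes. In c1 it stood at 167 and 188 CPM, a log2 fold change of -1.09 ± 0.08 (edgeR adjusted p = 0.00327), with 1 of 10 members called against 7.19% of 15260 genes. Leaving out a library moved the number of all genes called from 1522 to between 464 and 3373 in c0 and from 1097 to between 261 and 2814 in c1, lower without either control XY library and higher without either dKO XY library. It also brought further member calls in both clusters, up to 4 members. In c0 these were *Inhbb* (1.52 without control XY library 2, 0.75 without dKO XY library 1), *Acvr2b* (0.38 without dKO XY library 1) and *Tgfbr3* (-0.33 without dKO XY library 2). In c1 they were *Inha* (0.97, 0.69 and 0.67) and *Fst* (3.74, 1.76 and 2.11) without control XY library 2, dKO XY library 1 and dKO XY library 2, *Inhbb* without dKO XY library 1 (1.34) and *Tgfbr3* without dKO XY library 2 (-0.43). In c2, dKO XY stood at 37.2 and 61.0 CPM and overlapped control XY, and the *Inhba* log2 fold change was -0.46 ± 0.30 (edgeR adjusted p = 0.872). It was 0.17 without control XY library 1, -0.89 without control XY library 2, -0.16 without dKO XY library 1 and -0.83 without dKO XY library 2. There 0 of 10 members passed edgeR's test, 0 of 10 were under an unadjusted p of 0.05, and 0% of 13440 genes were called. Some genes, none of them members, were called when either control XY library was left out. DESeq2 was not run on single clusters. Control XX cells of c2 held 25.8 and 21.4 CPM of *Inhba*, below the control XY cells of c2 by 1.45 ± 0.30 on the log2 scale, and 3 of 10 members were called in that comparison against 11.8% of genes. That *Inhba* call was lost without either control XX library (-1.54 and -1.36, edgeR adjusted p = 0.0582 and 0.0949). It held without control XY library 1 (-0.81, edgeR adjusted p = 0.0413) and without control XY library 2 (-1.87, edgeR adjusted p = 3.94e-05).

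**Figure D2:**
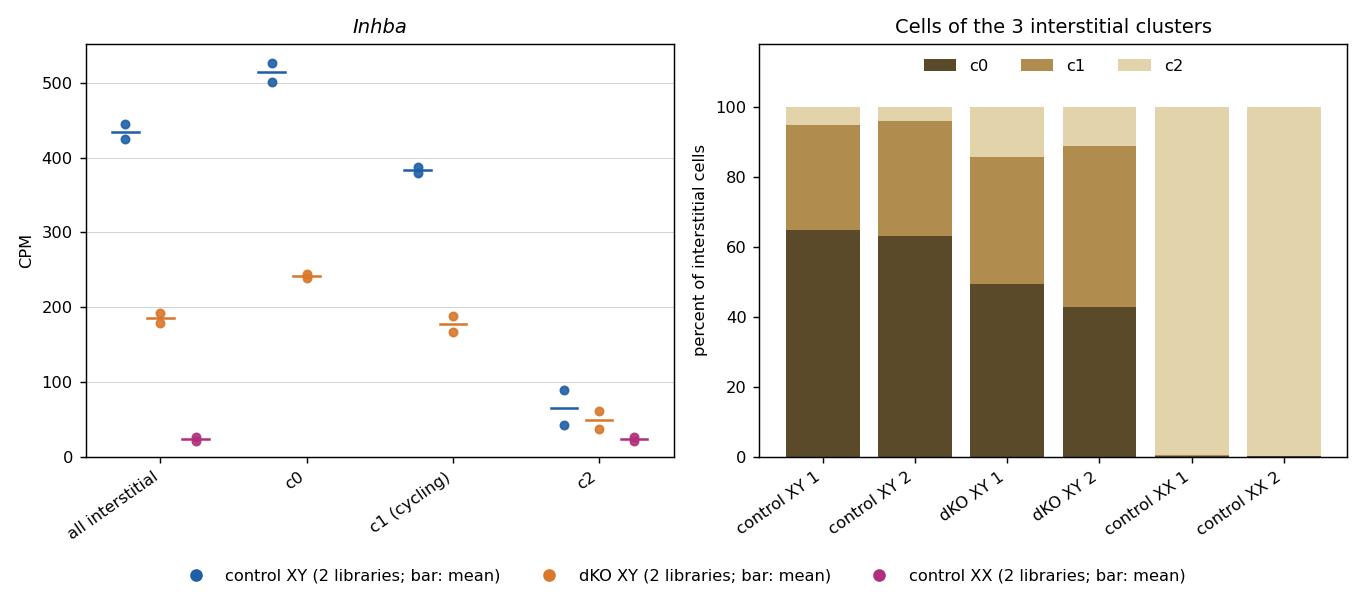
Left, *Inhba* in counts per 1000000 (CPM) in all interstitial cells and in each of the 3 clusters, with 1 point per library and a bar at the group mean; here dKO XY lies below control XY in c0 and c1 and overlaps it in c2. Right, the percent of each library's interstitial cells in each cluster, where dKO XY lies below control XY in c0 and above it in c1 and c2.

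Leydig cells held less *Inhba*, 134 and 155 CPM in control XY and 89.9 and 117 CPM in dKO XY, with no overlap between the groups. The log2 fold change of -0.51 ± 0.13 passed narrowly (edgeR adjusted p = 0.0447) and did not pass without control XY library 2 (-0.42, edgeR adjusted p = 0.146) or without the highest doublet scores (-0.36, edgeR adjusted p = 0.115). Summed interstitial markers in Leydig cells stood at 532 to 543 CPM in control XY and 442 to 481 CPM in dKO XY, and their part in the *Inhba* difference was not tested. Summed Leydig markers in these cells were also lower in dKO XY, at 20720 to 21141 CPM against 29903 to 31292 CPM in control XY, and their part was not tested. In total 3 of 10 members were called in Leydig cells, against 9.63% of 14749 genes, and the others were *Inhbb* and *Fst*.

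In supporting cells *Inhba* needs to be read with the cells that carried it. The sum stood at 78.7 and 83.6 CPM in control XY, 19.3 and 13.5 CPM in dKO XY and 0.814 and 1.79 CPM in control XX. Of the control XY *Inhba* UMIs, 87.2% and 82.5% came from the 57 and 103 supporting cells high in *Sycp3* or *Tcf21* (log-normalised value of 1 or more). In dKO XY 53.4% and 37.0% came from 116 and 68 such cells. Without those cells the *Inhba* levels were 12.8 and 18.2 CPM in control XY and 10.0 and 9.13 CPM in dKO XY, and the log2 fold change was -0.74 instead of -2.30 (edgeR adjusted p = 0.0264). In Sertoli-like cells, a class formed without those cells, *Inhba* was found at 8.63 and 12.3 CPM in control XY, against 6.64 and 4.74 CPM in dKO XY. The share of Sertoli-like cells with an *Inhba* UMI, 2.72% and 3.48% in control XY after reduction, lay below that of endothelial cells, 5.95% and 8.28%, so the share is not read as expression. The part of free RNA in it was not tested. Interstitial markers in Sertoli-like cells summed to 126 to 164 CPM in control XY and 98.3 to 102 CPM in dKO XY.

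*Inha* (ENSMUSG00000032968, chromosome 1, 75507077 to 75510366, plus strand) encodes the α chain shared by the inhibins. Leydig cells held the most in control XY, 2132 and 2151 CPM, more than Sertoli-like cells at 604 and 637 CPM. In dKO XY the Leydig cells stood at 1986 and 1731 CPM and the Sertoli-like cells at 111 and 100.4 CPM. The Leydig difference, -0.24 ± 0.10 with a 95% interval from -0.43 to -0.04, did not pass the threshold (edgeR adjusted p = 0.190), and without dKO XY library 1 it did, at -0.37 (edgeR adjusted p = 0.0386). The Sertoli-like difference was -2.60 ± 0.14 (edgeR adjusted p = 3.11e-06). After reduction to 5000 UMIs, *Inha* was counted in 89.2% and 90.9% of Sertoli-like cells of control XY but in 40.5% and 35.6% of those of dKO XY. In Leydig cells the shares were 94.4% and 93.8%, against 87.9% and 86.1% in dKO XY. Endothelial cells were at 7.13% and 8.71% in control XY.

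The dKO XY Sertoli-like level of *Inha* fell within the range of granulosa-like cells, which held 102 and 124 CPM in control XX and 138 and 99.8 CPM in dKO XY. The unnamed subcluster was higher, at 268 and 252 CPM in dKO XY, and in control XY, where it had few cells, at 979.6 and 421 CPM. Of all supporting cells, those of dKO XY held more *Inha* than those of control XX by 0.64 ± 0.13 on the log2 scale (edgeR adjusted p = 0.00269), and this difference rested on a cluster of supporting cells led by *Myl1*, *Cck* and *Pnmt* that was rich in dKO XY cells. Without that cluster it was 0.01 (edgeR adjusted p = 0.945).

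**Figure D3:**
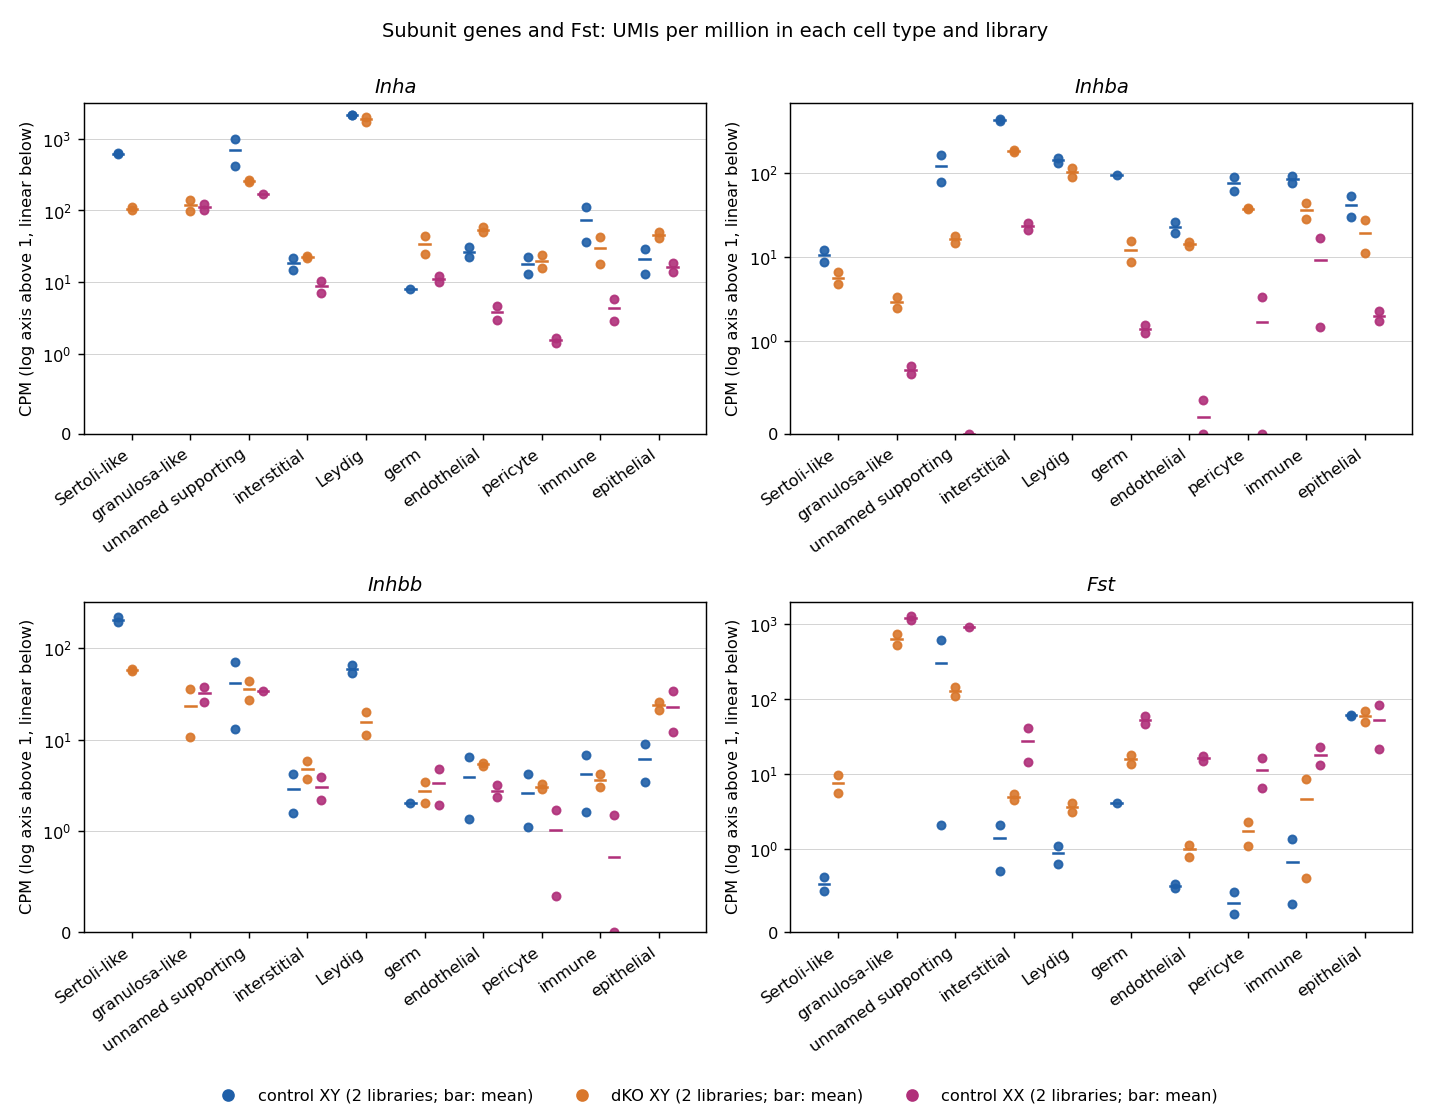
*Inha*, *Inhba*, *Inhbb* and *Fst* in counts per 1000000 (CPM; log axis above 1, linear below) in each cell type, with 1 point per library and a bar at the mean of the libraries with at least 10 cells of the type (1 library for control XY germ cells and for the control XX unnamed subcluster). *Inha* peaks in Leydig cells, *Inhba* in interstitial cells, *Inhbb* in control XY Sertoli-like cells and *Fst* in control XX granulosa-like cells.

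*Fst* (ENSMUSG00000021765, chromosome 13, 114452290 to 114458951, minus strand) encodes follistatin. Granulosa-like cells of control XX held 1249 and 1132 CPM, and those of dKO XY 729 and 513 CPM, while control XY Sertoli-like cells held 0.663 and 0.496 CPM, from 4 and 6 UMIs. The granulosa-like groups did not overlap and differed by -0.80 ± 0.19 (dKO XY minus control XX, edgeR adjusted p = 0.0155). Summed granulosa markers were also lower, at 1559 to 1635 CPM in dKO XY against 1787 to 1826 CPM in control XX. Germ cell markers stood at 54.9 to 332 CPM against 46.0 to 51.2 CPM. Their part in the *Fst* difference was not tested. In this comparison 2 of 10 members were called against 6.19% of 13727 genes, the other being *Tgfbr3*, higher in dKO XY by 1.32 ± 0.35. Neither call held without dKO XY library 2, which left *Fst* at -0.57 (edgeR adjusted p = 0.237) and *Tgfbr3* at 0.68 (edgeR adjusted p = 0.418), nor without control XX library 1 (-0.70 and 1.64), and *Tgfbr3* was not called without control XX library 2 (1.16). *Inhbb* was called only without dKO XY library 2 (-1.47). The number of all genes called was lower without either control XX library or dKO XY library 2, and higher without dKO XY library 1. The subcluster with the larger part of control XX granulosa-like cells, 1718 and 560, led by *Calb1* and *Irx3*, held 24 and 16 of the dKO XY cells, and the one led by *Lmcd1* and *Pax8* held 45 and 16.

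Sertoli-like cells of dKO XY held 5.61 and 9.59 CPM of *Fst*, above both control XY libraries, a log2 fold change of 3.71 ± 0.46 (edgeR adjusted p = 0.000422) that was called under each alternative run. The level remained far below that of granulosa-like cells. *Fst* UMIs were counted in 1.85% and 2.53% of these cells after reduction, against 0.607% and 0.452% of endothelial cells and 1.59% and 1.14% of Leydig cells of the same libraries. Summed granulosa markers in Sertoli-like cells stood at 33.3 to 40.4 CPM in control XY and 189 to 239 CPM in dKO XY, while summed Sertoli markers overlapped, at 9169 to 10407 and 8482 to 10647 CPM. The part of granulosa RNA in the *Fst* difference was not tested, nor was its part in the Leydig and interstitial values below. Pericytes held 0.217 to 0.478 CPM of *Fst* in control XY and 1.09 to 2.30 CPM in dKO XY. Endothelial cells held 0.532 to 0.575 and 0.897 to 1.11 CPM. Immune cells overlapped, at 0.340 to 1.33 and 0.648 to 8.42 CPM. *Fst* also rose in Leydig cells, from 1.07 and 0.815 to 4.08 and 3.04 CPM (log2 1.89 ± 0.26, edgeR adjusted p = 0.00621), and in interstitial cluster c0, from 0.690 and 1.504 to 3.96 and 3.06 CPM (1.69 ± 0.36, edgeR adjusted p = 0.0362), the second of which was not called without control XY library 1 (1.24, edgeR adjusted p = 0.0716). In the interstitial sum it did not pass, at 1.80 ± 0.54 (edgeR adjusted p = 0.105), and without control XY library 2 it did (2.74, edgeR adjusted p = 0.0444).

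For all supporting cells the *Fst* value depends on 1 control library. Control XY library 1 held 30.2 CPM and library 2 held 0.577 CPM, and 230 of the 246 *Fst* UMIs of library 1 came from the 11 cells of the unnamed subcluster, where it stood at 601 CPM against 2.06 CPM in library 2. dKO XY held 85.9 and 69.7 CPM and control XX 1230 and 1059 CPM, so the groups did not overlap. The dKO XY difference was 2.49 ± 0.89 and was not called (edgeR adjusted p = 0.0895). It was called in 5 of 12 alternatives, among them no filter on low counts, the replicate block and without the cluster led by *Myl1* and *Cck*. It was 7.07 without control XY library 1 and 1.37 without library 2, and called in both cases (edgeR adjusted p = 5.69e-05 and 0.00649). *Fst* was higher in control XX than in control XY by 6.31 ± 1.00 (edgeR adjusted p = 0.000561), a value that was 10.88 without control XY library 1, 5.19 without control XY library 2 and 11.03 without the cluster led by *Myl1* and *Cck*. *Fst* was lower in dKO XY than in control XX by 3.82 ± 0.86 (edgeR adjusted p = 0.00571). DESeq2 did not call the last *Fst* difference (-3.83, adjusted p = 0.0536).

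*Fstl3* (ENSMUSG00000020325, chromosome 10, 79777272 to 79782630, plus strand), the relative of follistatin, had low counts throughout. Sertoli-like cells held 13.9 and 9.67 CPM in control XY and 4.85 and 6.01 CPM in dKO XY, without overlap, a log2 fold change of -1.14 ± 0.25 (edgeR adjusted p = 0.0122). In all supporting cells the fall of 0.76 was not called without control XY library 1 (-0.53), without dKO XY library 1 (-0.69), without dKO XY library 2 (-0.84) or without the highest doublet scores (-0.60). Leydig cells moved the other way, from 0.939 and 0.922 to 1.62 and 1.75 CPM, but did not pass (0.82 ± 0.24, edgeR adjusted p = 0.0732). In Sertoli-like cells, then, *Fstl3* fell while *Fst* rose. *Fstl3* lies on the same chromosome as the deleted *Amh* gene, which is at 80805243 to 80807648. The part of DNA linked to the *Amh* allele in the *Fstl3* difference was not tested.

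*Acvr1b* (ENSMUSG00000000532, chromosome 15, 101174067 to 101213684, plus strand) encodes the type 1 receptor ALK4. Of the receptors among the members it was the one that fell with genotype. It was highest in control XY Sertoli-like cells, 18.9 and 25.2 CPM, and stood at 12.1 and 15.4 CPM in dKO XY Sertoli-like cells and 9.41 and 8.87 CPM in control XX granulosa-like cells. The Sertoli-like fold change was -0.74 ± 0.20 (edgeR adjusted p = 0.0296). In all supporting cells its fall of 1.00 was not called without control XY library 2 (-0.81, edgeR adjusted p = 0.0652). Interstitial and Leydig cells held 1.92 to 4.34 CPM in the XY libraries, with a difference of -0.18 and an interval from -0.57 to 0.21 in interstitial cells.

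The type 2 receptors differed little between the XY groups. *Acvr2b* (ENSMUSG00000061393, chromosome 9, 119402118 to 119434995, plus strand) held 41.5 and 42.2 CPM in control XY, against 38.4 and 40.0 CPM in dKO XY Sertoli-like cells, and the difference of -0.14 had an interval from -0.39 to 0.11. The unnamed subcluster, at 30.95 and 47.0 CPM in control XY, overlapped both Sertoli-like cells and epithelial cells, the latter at 33.4 and 34.8 CPM, and Leydig cells, at 7.89 and 7.74 CPM, were among the lowest. *Acvr2a* (ENSMUSG00000052155, chromosome 2, 48814109 to 48903269, plus strand) ranged in control XY from 2.67 and 6.80 CPM in immune cells to 16.3 and 18.4 CPM in epithelial cells. It stood at 13.9 and 14.7 CPM in control XY and 12.7 and 11.6 CPM in dKO XY Sertoli-like cells, with an interval from -0.62 to 0.06. Control XX granulosa-like cells, at 18.2 and 16.5 CPM, lay above both.

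*Tgfbr3* (ENSMUSG00000029287, chromosome 5, 107106570 to 107289629, minus strand), which encodes the inhibin co-receptor betaglycan, was a gene of the cells around the cords. Leydig cells held 46.7 and 56.3 CPM and interstitial cells 42.2 and 47.1 CPM in control XY, and these ranges overlapped, while Sertoli-like cells held 1.49 and 3.97 CPM. In dKO XY the values were 40.9 and 57.2, 33.6 and 43.6, and 4.19 and 4.91 CPM in the same order, and none of the 3 differences passed. The unnamed subcluster was the supporting class with the most *Tgfbr3*, 31.3 and 61.9 CPM in control XY and 26.8 and 40.8 CPM in dKO XY. The supporting sum differed by 0.73 ± 0.27 and was not called (edgeR adjusted p = 0.0983), and its value ran from -0.54 to 1.69 over the alternatives. It was called without dKO XY library 1 (1.08), without the highest doublet scores (1.07), without cells high in *Sycp3* or *Tcf21* (1.69) and with no filter on low counts (0.74). *Tgfbr3* stood at 0.25 without dKO XY library 2 and at -0.54 without the cluster led by *Myl1* and *Cck*, where it was not called.

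*Smad2*, which encodes the mediator downstream of the activin receptors, was counted in each named class, from 21.8 CPM in immune cells to 75.0 CPM in Sertoli-like cells. Sertoli-like cells stood at 67.5 and 75.0 CPM in control XY and 63.1 and 49.9 CPM in dKO XY, without overlap, and the difference of -0.38 ± 0.14 did not pass (edgeR adjusted p = 0.115). In interstitial cells the dKO XY difference was -0.07 with an interval from -0.25 to 0.10.

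**Figure D4:**
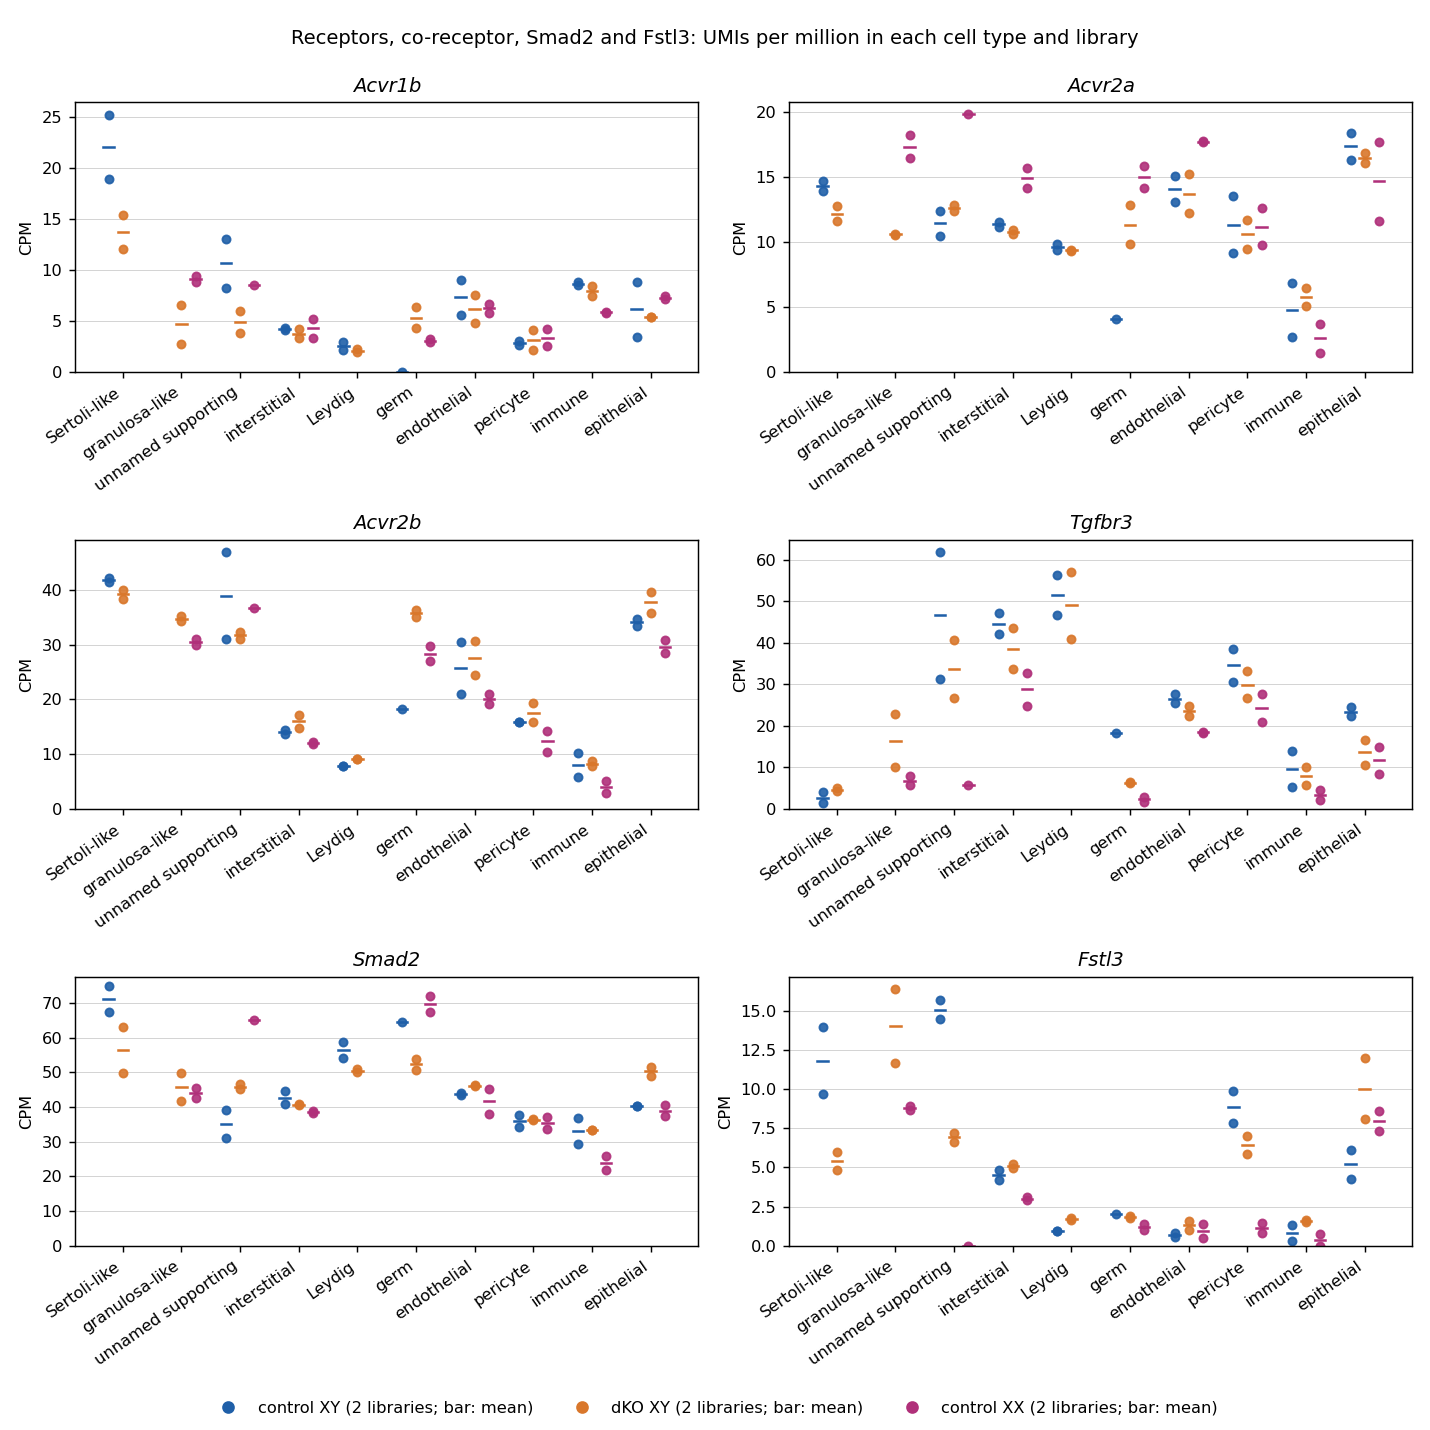
*Acvr1b*, *Acvr2a*, *Acvr2b*, *Tgfbr3*, *Smad2* and *Fstl3* in counts per 1000000 (CPM, linear axes) in each cell type, with 1 point per library and a bar at the mean of the libraries with at least 10 cells of the type. *Acvr1b* is highest in control XY Sertoli-like cells and *Tgfbr3* is low in Sertoli-like cells, while *Smad2* is found in each class.

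Between the control sexes the supporting cells differed in most of these genes. Comparing control XX with control XY, 7 of 10 members were called, 1 higher and 6 lower, in a comparison in which 49.1% of 15926 genes were called, and the members' median of -0.61 stood against 0.03 for all genes. *Fst* was the higher one. *Inhba* (-6.17), *Inhbb* (-2.51), *Inha* (-2.41), *Acvr1b* (-1.17), *Smad2* (-0.60) and *Acvr2b* (-0.41) were lower. The *Inhba* value was -4.62 without cells high in *Sycp3* or *Tcf21*, and *Acvr2b* was not called without control XY library 2 (-0.39) or control XX library 2 (-0.34). Against control XX, dKO XY supporting cells had 6 of 10 members called, 4 higher and 2 lower, where 41% of genes were called. *Inhba* (3.87), *Tgfbr3* (1.33), *Inha* (0.64) and *Inhbb* (0.62) were higher in dKO XY, and *Fst* (-3.82) and *Acvr2a* (-0.46) lower. Endothelial cells held 13.6 to 15.0 CPM of *Inhba* in dKO XY and 0 to 0.363 CPM in control XX. Epithelial cells held 11.1 to 28.0 and 1.74 to 2.25 CPM. The part of free *Inhba* RNA in the supporting differences was not tested. *Inhbb* was not called without dKO XY library 2 (0.45) or control XX library 2 (0.35), nor *Acvr2a* without dKO XY library 1 (-0.49), dKO XY library 2 (-0.44) or control XX library 1 (-0.37). Without the cluster led by *Myl1* and *Cck* the *Tgfbr3* difference turned to -0.17 (edgeR adjusted p = 0.550). The 3 supporting comparisons share libraries and are not independent of each other.

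Interstitial cells of control XX and control XY differed in 6 of 10 members, 2 higher and 4 lower, where 25% of 16845 genes were called. *Fst* was higher in control XX by 4.33, with 41.0 and 14.2 CPM against 0.729 and 2.05 CPM, and *Acvr2a* by 0.45. Other control XX classes also held *Fst*, endothelial cells 14.9 to 17.3, immune cells 13.1 to 22.9 and pericytes 6.49 to 15.9 CPM. In control XY these stood at 0.532 to 0.575, 0.340 to 1.33 and 0.217 to 0.478 CPM. The part of free *Fst* RNA in the interstitial difference, and in that of c2 below, was not tested. *Inhba* (-4.15), *Inha* (-1.02), *Tgfbr3* (-0.58) and *Fstl3* (-0.53) were lower. In control XY, interstitial *Inha* at 14.8 to 21.9 CPM overlapped pericytes (13.0 to 22.8 CPM) and epithelial cells (12.9 to 29.3 CPM). Summed Leydig markers in interstitial cells stood at 108 to 121 CPM in control XY and 3.97 to 6.03 CPM in control XX. The part of Leydig RNA in the *Inha* difference was not tested. Leaving out a library ended the call for *Inha* (-0.81 without control XX library 2), for *Acvr2a* (0.44 and 0.48 without control XY library 1 or 2), for *Tgfbr3* (-0.65, -0.50 and -0.43 without control XY library 1, control XY library 2 or control XX library 2) and for *Fstl3* (-0.42 to -0.62, without any of the 4). Since nearly all control XX interstitial cells were of cluster c2, the comparison within c2 is the closer one, and there *Inhba*, *Fst* (3.56 ± 0.52, edgeR adjusted p = 0.00120) and *Fstl3* (-0.97, edgeR adjusted p = 0.0286) were called. *Fstl3* was not called without control XY library 2 (-0.72), control XX library 1 (-0.98) or control XX library 2 (-0.97).

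Whether the dKO XY effect differed between cell types was tested as an interaction within the 4 XY libraries. Between supporting and interstitial cells 6 of 10 members differed in their response, against 19.4% of 17085 genes. *Inhbb*, a deleted gene, fell in supporting cells, while the interstitial value was 0.73 ± 0.44, a difference of -2.72 ± 0.30. For *Inha* the interstitial value was 0.28 ± 0.20 and the difference -2.12 ± 0.15 (edgeR adjusted p = 0.000224 and 2.21e-05). Control XY interstitial cells held only 14.8 to 21.9 CPM of *Inha*, overlapping pericytes at 13.0 to 22.8 CPM. *Inhba* fell in both, with a difference of -1.11 ± 0.16 (edgeR adjusted p = 0.00113) that includes the supporting cells high in *Sycp3* or *Tcf21*. Without those cells the *Inhba* value in supporting cells was -0.74, a smaller fall than the -1.24 of interstitial cells, and the interaction was not tested without them. *Fstl3* (-0.96), *Acvr1b* (-0.85) and *Tgfbr3* (0.88) also differed, and without control XY library 2 *Acvr1b* (-0.69) and *Tgfbr3* (0.98) were not called. The *Tgfbr3* value in supporting cells was -0.54 without the cluster led by *Myl1* and *Cck*, and the interaction was not run without it. *Fst* was not called at 1.03, and stood at 5.79 without control XY library 1 and -1.39 without library 2, called in both cases. Between Leydig and interstitial cells 2 of 10 differed, against 14% of 16610 genes. The number of all genes called was lower without either control XY library, most so without library 2. *Inhba* fell less in Leydig cells, a difference of 0.72 ± 0.11 (edgeR adjusted p = 0.00411), and *Inhbb* fell there while interstitial cells, at 3.71 and 5.83 CPM, overlapped their controls, a difference of -2.77 ± 0.29 (edgeR adjusted p = 0.000963). *Inha* was not called at -0.54, and was called without control XY library 2 (-0.82), dKO XY library 1 (-0.68) or dKO XY library 2 (-0.40).

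Of the other classes, endothelial cells, pericytes and immune cells were tested between the XY groups, and epithelial cells were not. In endothelial cells 1 of 9 members tested was called, against 0.523% of 12053 genes. It was *Inha*, at 22.4 and 31.2 CPM in control XY and 49.9 and 58.5 CPM in dKO XY (1.00 ± 0.19, edgeR adjusted p = 0.0447). The share of endothelial cells with an *Inha* UMI overlapped, at 7.13% and 8.71% against 6.73% and 10.4% after reduction, and summed Leydig markers in these cells stood at 340 to 368 CPM in control XY and 387 to 811 CPM in dKO XY. Without the 8% of cells with the highest doublet scores the *Inha* difference was -0.44 (edgeR adjusted p = 0.690), and it was not called without control XY library 1 (0.80), control XY library 2 (1.29) or dKO XY library 2 (0.90).

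Pericytes had 0 of 10 members called by edgeR, against 0.267% of 11990 genes. At an unadjusted p under 0.05 there were 2, and DESeq2 called 0. *Inhba* stood at 62.1 and 89.6 CPM in control XY and 38.6 and 37.4 CPM in dKO XY pericytes without overlap, and did not pass (-1.01 ± 0.22, edgeR adjusted p = 0.114). Immune cells had 0 of 9 members called by edgeR, against 0.00865% of 11560 genes, with 1 under an unadjusted p of 0.05, and DESeq2 called 0. *Inhba* stood there at 77.1 and 93.1 CPM in control XY and 28.5 and 44.7 CPM in dKO XY. In endothelial cells *Inhba* stood at 19.2 and 26.6 against 15.0 and 13.6 CPM. In these 3 classes the *Inhba* values of the XY groups did not overlap and lay in the direction seen in interstitial cells, and the part of free *Inhba* RNA in this was not tested.

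Germ cells could be compared only between dKO XY and control XX, since control XY had 15 and 7 of them. Of 10 members 5 were called, 4 higher and 1 lower, where 48.9% of 14745 genes were called. *Inhba* stood at 15.8 and 8.85 CPM in dKO XY and 1.23 and 1.54 CPM in control XX (3.25 ± 0.34), *Inha* at 43.5 and 24.8 against 12.4 and 10.0 CPM (1.69 ± 0.24) and *Fst* at 13.5 and 17.7 against 59.6 and 46.0 CPM (-1.69 ± 0.21). *Tgfbr3* (1.57) and *Acvr1b* (0.84) were also higher. All 5 values are log2 fold changes from edgeR's quasi-likelihood test. Without the highest doublet scores *Inha* was 0.60 and *Fst* -0.40 and neither was called, and *Acvr1b* was not called without dKO XY library 1 (1.10), dKO XY library 2 (0.57), control XX library 1 (0.84) or control XX library 2 (0.81), nor by DESeq2 (0.80) or with a replicate block (0.82). Each of *Inhba*, *Inha* and *Fst* was highest in somatic cells of the same gonads, and summed Leydig markers in germ cells stood at 215 to 373 CPM in dKO XY and 7.45 to 7.60 CPM in control XX. The part of free RNA was not tested.

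The rest of the pathway was read from lists of other genes, whose counts in supporting cells stand beside the 16.7% of all genes called there. Among 6 other activin-type and inhibitory ligands tested in supporting cells, 5 were higher in dKO XY (*Nodal*, *Lefty1*, *Lefty2*, *Gdf3* and *Gdf11*) and 0 lower. *Nodal* signals through the same receptors and SMADs as activin, and LEFTY1 and LEFTY2 are its inhibitors. In Sertoli-like cells *Lefty1* stood at 0.995 and 0.496 CPM in control XY and 5.89 and 10.3 CPM in dKO XY, and *Nodal* at 0 and 0.0826 against 1.27 and 1.16 CPM. Summed germ cell markers in the same Sertoli-like sums were 34.1 to 135 CPM in control XY and 353 to 474 CPM in dKO XY, with dKO XY libraries holding 414 and 277 germ cells against 15 and 7. The part of germ cell RNA in these ligand values was not tested. In Leydig cells, where 9.63% of all genes were called, 0 of 4 ligands tested were higher and 2 lower. *Lefty1* stood there at 13.6 and 13.8 CPM in control XY, against 8.09 and 9.75 CPM in dKO XY, and *Lefty2* at 160 and 147 against 69.8 and 108 CPM.

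Among genes known to respond to SMAD2 and SMAD3, 4 of 9 tested fell in dKO XY supporting cells (*Smad7*, *Ltbp3*, *Nedd9* and *Pmepa1*) and 1 rose (*Tgfbi*). *Smad7*, an inhibitory SMAD induced by the pathway it blocks, stood in Sertoli-like cells at 437 and 546 CPM in control XY and 248 and 171 CPM in dKO XY (-1.28 ± 0.18, edgeR adjusted p = 0.00111). *Tgfbi*, which encodes a secreted matrix protein, rose from 6.63 and 8.51 to 137 and 121 CPM in these cells (4.01 ± 0.17, edgeR adjusted p = 1.01e-06), and *Tgfbi* also rose in Leydig (1.99) and interstitial cells (0.93). The members of this list thus moved in both directions.

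Among SMADs and their regulators, 3 of 13 tested fell in supporting cells (*Smad6*, *Smad7* and *Ppm1a*) and 1 rose (*Smad3*, which encodes the partner of SMAD2, by 0.78 ± 0.18, edgeR adjusted p = 0.0132). In Sertoli-like cells, where 14.4% of all genes were called, 2 of 13 fell (*Smad6* and *Smad7*) and 0 rose. *Smad6*, an inhibitory SMAD of the BMP branch, went from 19.4 and 20.7 to 3.02 and 2.43 CPM in Sertoli-like cells. Of 9 other receptors, 3 fell (*Acvrl1*, *Bmpr2* and *Acvr1*) and 1 rose (*Tgfbr3l*, which encodes a co-receptor known for inhibin B). *Acvrl1*, which encodes the type 1 receptor ALK1, stood at 54.7 and 53.2 CPM in control XY and 13.9 and 13.1 CPM in dKO XY Sertoli-like cells. Of 9 other antagonists, 3 fell (*Fstl1*, *Tmeff2* and *Chrd*) and 0 rose. Of the 5 tested in Sertoli-like cells, 1 fell (*Fstl1*) and 1 rose (*Fstl4*). Of 4 proprotein convertases, the enzymes that cut precursors of this family, *Pcsk6* rose, from 15.1 and 13.7 to 45.3 and 59.9 CPM in Sertoli-like cells. In interstitial cells, where 6.2% of all genes were called, edgeR called 0 of 6 ligands and 0 of 13 SMADs and regulators. Of 9 receptors *Acvr1c* was lower there (-1.90), of 9 antagonists *Chrd* (-1.11) and *Wfikkn2* (-0.82) were lower, and of 4 convertases *Pcsk6* was higher (1.16). Of 9 genes known to respond to SMAD2 and SMAD3, *Nedd9* (1.37) and *Tgfbi* (0.93) were higher and *Ltbp3* (-0.46) and *Col1a1* (-0.75) lower.

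The genes whose level followed 4 of the members most closely were found over 45 sums of library and cell type, among 9320 genes with a mean of at least 10 CPM, as Pearson's r of log2(CPM + 1). For *Inha* they included *Acsbg1* (r = 0.946), *Aldh1a1* (0.940) and *Fdxr* (0.936), for *Inhba* *Sostdc1* (0.883), *Robo2* (0.880) and *Pdyn* (0.870), for *Inhbb* *Etnk2* (0.922) and *Clu* (0.892), and for *Fst* *Sp5* (0.860) and *Foxl2* (0.793). Sums of the same library share its depth and its free RNA, and r is a description over cell types.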

How the data were processed

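Gonads were profiled by 10x single-cell RNA-seq in 6 libraries, 2 in each of 3 groups. For each library the authors deposited a matrix of unnormalised UMI counts, made with Cell Ranger 3.0, corrected for barcode swapping, on mm10. The submitters' processing notes name Seurat 4.0 for later steps, whose output was not used here. No column of per-sample values was left unmapped.

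Barcodes were kept with 2500 to 9000 genes, under 25% mitochondrial and under 20% Hbb UMIs. Cells were clustered in Seurat 5.3.0 (R 4.3.3) with the members, their pathway lists and *Amh* removed from the 3000 variable genes (20 dimensions, resolution 0.21). Supporting cells were clustered again (8 dimensions, resolution 0.25) without those high in *Sycp3* or *Tcf21*. High was a value of 1 or more for the log of 1 plus UMIs per 10000. A cluster was named from marker lists and otherwise left unnamed. Among supporting subclusters the name did not always follow the list that ranked first. Doublets were scored with scanpy 1.11.5, and leaving out the 8% highest scores was an alternative.

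Sums of UMIs were formed for each cell type of a library with at least 10 cells, and edgeR 4.0.16 (quasi-likelihood test, TMM, low counts filtered, Benjamini-Hochberg over all genes tested, called under 0.05) was fitted to all genes. DESeq2 1.42.0, no filter, a replicate block, fewer groups and each library left out were alternatives. Leaving out the cluster rich in dKO XY cells or the cells high in *Sycp3* or *Tcf21* from the supporting sum was added after seeing the data. So was leaving out single libraries in the cluster and granulosa-like comparisons. On simulated counts with known changes, 82.5% of changed genes were recovered for supporting, 84.0% for Sertoli-like, 86.0% for interstitial, 92.0% for Leydig, 85.5% for endothelial and 70.5% for germ cells, 78.0% for pericytes, 47.0% for immune cells and 68.5% for the interaction. False calls were 2.14% (interaction) to 7.84% (germ cells). In the simulations between 2 groups the changes were larger than many member differences above, lay in genes past the filter, and all genes had the same dispersion. The rates do not give the recovery of smaller changes. Shares of cells are the expected share after each cell is reduced to 5000 UMIs. Intervals are nominal 95% intervals, a normal multiple of an SE whose spread between libraries is moderated over genes. With 2 libraries a group they may be too narrow. The text names the 10 members in each comparison and the called genes of the pathway lists, and the genes most alike are the top of a ranking by correlation. The members and lists were chosen with earlier results of these data known. Nothing shows that the libraries' numbers pair them across groups: deviations from the group means correlated at -0.181 to 0.000244 in supporting cells and -0.209 to 0.107 in interstitial cells.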

Additional observations from a re-analysis of the deposited data

Results flagged for a closer look

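The dKO XY effect on 6 members differed between supporting and interstitial cells by the interaction term of edgeR's quasi-likelihood test in the 4 XY libraries, where it was called for 19.4% of 17085 genes. The differences (supporting minus interstitial log2 fold change) were -2.72 for *Inhbb*, -2.12 for *Inha*, -1.11 for *Inhba*, -0.96 for *Fstl3*, -0.85 for *Acvr1b* and 0.88 for *Tgfbr3*. *Inhbb* is a deleted gene, and control XY interstitial cells held only 1.55 and 4.14 CPM of it. Their *Inha* level, 14.8 to 21.9 CPM, overlapped that of pericytes, 13.0 to 22.8 CPM. Without the supporting cells high in *Sycp3* or *Tcf21* the *Inhba* change in supporting cells was -0.74, against -1.24 in interstitial cells, and the interaction was not tested without them. The *Tgfbr3* change in supporting cells was 0.73, and -0.54 without the dKO-rich cluster, without which the interaction was not run. The differences of *Acvr1b* and *Tgfbr3* were -0.69 and 0.98 without control XY library 2 and did not pass then. Between Leydig and interstitial cells the effect differed for *Inhba*, by 0.72, and for *Inhbb*, by -2.77, where 14% of 16610 genes were called.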

How the results depend on the processing

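Of 148 counts of called members recomputed under alternatives, 121 lay within 1.5 times the reported count, and of 1452 member fold changes 1334 kept their side of the threshold without a called value turning, 60 lost a call, 54 gained one and 4 turned. Among the 1334, 70 changed sign and were called in neither fit. The 4 were *Tgfbr3* in supporting cells, dKO XY minus control XX, at -0.17 without the dKO-rich cluster, *Inha* in endothelial cells at -0.44 without the highest doublet scores, *Inhbb* in germ cells at 0.96 with all variable genes used for clustering, and the *Fst* interaction at -1.39 without control XY library 2 (5.79 without library 1). The cause was not tested. With no filter on low counts the members called were 2 in interstitial cells (dKO XY minus control XY), 5 in Leydig cells, 1 in pericytes, 3 in immune cells and 4 for the Leydig interaction. With only the groups compared in the fit, pericytes had 1. With all variable genes endothelial cells had 0. Without the highest doublet scores endothelial cells had 0, immune cells 1 and germ cells 3. Leaving out a library gave 1 to 2 members in interstitial cells for dKO XY minus control XY and 3 to 5 for control XX minus control XY, 0 to 1 in endothelial cells, 1 to 4 in cluster c0, 1 to 4 in c1, 1 to 4 in c2 (control XX minus control XY) and 0 to 2 in granulosa-like cells. The replicate block called 6 members in supporting cells (dKO XY minus control XY) and over 108 fold changes ended 3 calls and added 2. The numbers do not pair the libraries. Counts of all genes called moved more, from 2664 to 1106 in supporting cells without control XY library 2, and in interstitial cells from 1045 to 265 without control XY library 1, 423 without control XY library 2 and 1740 with no filter. With 2 libraries a group, small differences and genes with few UMIs are measured with little precision.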
